A study of Mus musculus with 12 samples.

Results

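Proteoglycans are proteins that carry long sulfated sugar chains, and the genes described here are those of the core proteins together with the enzymes that build, sulfate and trim heparan sulfate, the chain that many growth factors bind. The members are the protein-coding rows of the deposited table for syndecans 1 to 4, glypicans 1 to 6, genes whose symbols start with the stems of the heparan sulfate 2-O-, 3-O- and 6-O-sulfotransferases, of the Ndst enzymes or of Ext1, Ext2 and the Extl genes, and 14 further named genes. This gave 37 members of 19547 genes, and all 37 passed the filter on low counts. Gpc5, Ndst4, Hs6st3, Hs3st2, Hs3st4, Hs3st5 and Hs3st6 were not analysed here.

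The samples are adipose tissue from wild type C57BL/6 mice aged 16 weeks, taken as fat grafts at 8 weeks. The 3 groups hold 4 libraries each. The control group is fat graft alone, CAL is fat graft with added ASC (adipose-derived stem cells in the usual reading of the abbreviation) and CAL_Dll4i is fat graft with added ASC and inhibition of Dll4, an endothelial ligand of the Notch receptors. The title places the study in cell-assisted lipotransfer, the transfer of fat with added cells. The labels do not give the source or dose of the ASC, the agent used against Dll4, or whether each library is 1 animal, so p-values measure the spread between these samples, which may be technical.

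Heparan sulfate is polymerised in the Golgi by the Ext1 and Ext2 proteins on a linker that Extl3 extends first. Ndst enzymes replace acetyl by sulfate, Glce turns glucuronic into iduronic acid, and 2-O-, 6-O- and 3-O-sulfotransferases then add sulfate, which sets which growth factors the chain holds. Outside the cell, Sulf1 and Sulf2 remove 6-O-sulfate and Hpse, heparanase, cuts the chain. In fat, proteoglycans line the basement membrane around each adipocyte and vessel, and the small leucine-rich proteoglycans bind collagen fibrils.

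Total counts ran from 55883051 to 70804141 per library, of which the members took 0.335% to 0.449%. All 10 adipocyte markers were in the table, and their summed level was 776 to 1778 CPM (counts in each 1000000, scaled by TMM) in control, 1855 to 2679 in CAL and 1347 to 1783 in CAL_Dll4i. The 7 measured skeletal muscle markers of 11 summed to 191 and 428 CPM in CAL replicates 1 and 2 and to 705 in CAL_Dll4i replicate 3, against 4.62 to 20.2 in the other 9 libraries; Ckm, Myh4, Myh1 and Tnnc2 were not analysed here. The 5 measured keratinocyte markers of 8 summed to 3.36 to 195 CPM in control, 3.82 to 54.9 in CAL and 4.79 to 362 in CAL_Dll4i. No measured marker of any list was at 0 in a library. Dll4 RNA lay at 4.96 to 6.95 CPM in control, 3.01 to 4.22 in CAL and 3.98 to 4.95 in CAL_Dll4i, and with the agent unknown this does not test the treatment. Whole-graft RNA cannot tell fewer cells of a type from less RNA per cell.

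Per transcript length, the highest levels were those of 3 small leucine-rich proteoglycans. How evenly library preparation recovered different genes was not tested, so levels and shares compared between genes may partly reflect it. In control, decorin (Dcn) stood at 194 FPKM and biglycan (Bgn) at 188 (FPKM, the authors' unit of reads scaled for transcript length and library size, group means), followed by lumican (Lum) at 92.0 and asporin (Aspn) at 43.0. Among heparan sulfate carriers perlecan (Hspg2), the main one of basement membranes, stood at 34.8 FPKM and agrin (Agrn), another of them, at 4.45. Of the enzymes, heparanase had the highest level, with 42.8 FPKM, and Ext1 stood at 29.7. At the other end Hs3st3a1, Extl1, Hs3st3b1, Gpc2, Ndst3 and Hs6st2 lay between 0.138 and 0.503 FPKM in control. Hs3st3a1 had 24 to 60 counts per library.

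**Figure D1:**
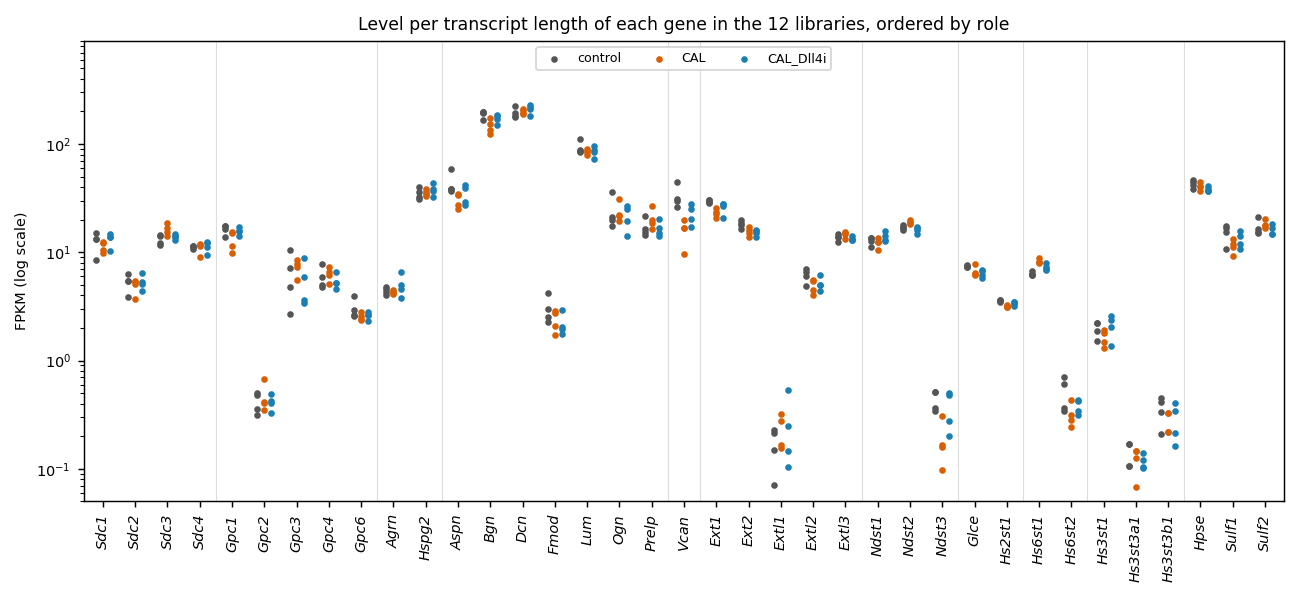
Level per transcript length (FPKM, log axis) of the 37 genes, with 1 point per library coloured by group and genes ordered by role. Dcn and Bgn are highest, and Hs3st3a1, Extl1, Hs3st3b1, Gpc2, Ndst3 and Hs6st2 lie under 1 FPKM in all 12 libraries.

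In the sulfotransferase families 1 or 2 of the genes analysed here held most of the level, and shares cover only those genes. Analysed were 2 of 3 6-O-sulfotransferases, 3 of 7 3-O-sulfotransferases, 3 of 4 Ndst genes and, below, 5 of 6 glypicans. Of the 6-O-sulfotransferase FPKM, Hs6st1 took 92.6% ± 2.63 (mean ± SD over 4 libraries) in control, 96.3% ± 0.766 in CAL and 95.1% ± 0.987 in CAL_Dll4i. Hs3st1, whose product makes the antithrombin-binding site of heparin, took 79.5% ± 7.54, 80.5% ± 3.93 and 83.0% ± 7.94 of the 3-O-sulfotransferase FPKM in the same order. Ndst2 and Ndst1 divided the Ndst level, with Ndst2 at 56.3% ± 2.77 in control, 60.3% ± 2.95 in CAL and 53.3% ± 3.56 in CAL_Dll4i. Syndecans were spread more evenly. Sdc3 took 31.2% ± 4.58, 37.4% ± 5.07 and 32.0% ± 3.04 of the syndecan FPKM, Sdc1 29.5%, 26.0% and 30.1%, and Sdc4 26.8%, 25.4% and 25.9%. Among glypicans Gpc1 held 52.0% ± 7.52 in control, 43.7% ± 7.45 in CAL and 53.5% ± 6.11 in CAL_Dll4i. Shares within a family sum to a whole, so a lower share of 1 gene raises the others.

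CAL against control asks what added ASC does to these genes. At an unadjusted p under 0.05, Hs6st1, Sdc3 and Ndst2 were higher in CAL, and Vcan, Ndst3, Ext1, Ext2, Bgn, Aspn, Sulf1, Hs6st2 and Gpc1 were lower. After adjustment over all 18551 genes tested with edgeR, 0 of 37 members were called, against 0.00539% of all genes. These are 3 members higher and 9 lower, where the shares over all genes were 7.01% and 7.57%. That is 12 members, or 32.4%, beside 14.6% of all genes. DESeq2 called 6 of 37 (Hs6st1, Sdc3 and Ndst2 higher, Vcan, Ext1 and Ndst3 lower), against 3.61% of genes. The 4 CAL libraries lay above all controls for 3 members and below them for 5, against 3.61% and 3.75% of all genes. The median log2 fold change was -0.09 over the members and -0.01 over all genes. The adipocyte marker sums of the CAL libraries all lay above those of the controls, and their part in these differences was not tested.

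Shown for orientation are the sequences before Hs6st1 and Sdc3, which had the largest estimates among members higher at an unadjusted p under 0.05. These are 250 bases on the coding strand before the start in RefSeq's promoter table on GRCm38.p6, the assembly that mm10 corresponds to: Hs6st1 at chr1:36068150-36068399 (plus) and Sdc3 at chr4:130792287-130792536 (plus). Capitals mark the GC box letters GGGCGG. Both strands were searched, also for the CCAAT box letters CCAAT, the TATA box letters TATAAA, the E-box letters CACGTG and the letters GTGGGAA of the RBPJ motif, RBPJ being the DNA-binding partner of Notch, none of which these stretches held.
Hs6st1: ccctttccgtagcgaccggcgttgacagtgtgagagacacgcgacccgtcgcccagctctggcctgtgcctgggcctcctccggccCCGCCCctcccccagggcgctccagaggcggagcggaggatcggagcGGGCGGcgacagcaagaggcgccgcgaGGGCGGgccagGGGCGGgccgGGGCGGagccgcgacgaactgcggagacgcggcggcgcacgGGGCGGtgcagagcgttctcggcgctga
Sdc3: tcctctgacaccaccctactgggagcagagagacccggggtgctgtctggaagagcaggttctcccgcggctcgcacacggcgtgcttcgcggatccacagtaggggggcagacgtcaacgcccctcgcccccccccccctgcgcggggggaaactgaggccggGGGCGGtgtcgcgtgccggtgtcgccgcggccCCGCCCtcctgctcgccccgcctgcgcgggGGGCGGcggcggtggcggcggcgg
Hs6st1 held 6 GC boxes and Sdc3 3, with no overlap between hits. Promoter entries were found for 28 of the 37 members, and for 11 of these a stretch lay wholly or partly inside the gene's full span, since the table's start is not always the outermost one. Of the 28 members, 19 held a GC box and 2 the RBPJ letters, where 32.7% and 5.42% of all 32851 promoter entries did; the CCAAT, TATA and E-box letters were in 14, 4 and 3 members and in 33.8%, 12.4% and 6.02% of entries. A member counted where any of its entries held the letters, and the 28 members had 33 entries. The member counts are therefore not directly comparable with the shares of entries. A match is a description of letters and not a bound site.

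Hs6st1, which held nearly all of the FPKM of the 2 6-O-sulfotransferases measured, had the smallest p of the members. It stood at 29.3, 31.7, 28.5 and 28.3 CPM in control replicates 1 to 4, at 38.2, 42.0, 38.9 and 36.7 in CAL and at 33.5, 37.9, 33.6 and 36.3 in CAL_Dll4i. Every CAL and every CAL_Dll4i library lay above every control. The log2 fold change of CAL against control was 0.40 ± 0.07 (± SE), 1.32-fold, with adjusted p = 0.0969 by edgeR and 7.47e-06 by DESeq2. The gene lies on chromosome 1 at 36068400 to 36106446, and 8.07% of its exonic bases overlap the antisense gene Gm37335 in GENCODE M21, whose reads cannot be told apart where strand was not used in counting. Hs6st2, the other 6-O-sulfotransferase measured, ran from 1.91 to 3.95 CPM in control and from 1.48 to 2.68 in CAL, with overlapping groups (-0.60 ± 0.26, adjusted p = 0.326 by edgeR).

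Sdc3, the syndecan best known from nerve and muscle, stood at 89.3, 88.4, 71.01 and 74.9 CPM in control, 104, 90.5, 98.7 and 116 in CAL and 96.6, 83.4, 89.6 and 92.6 in CAL_Dll4i. The lowest CAL library, replicate 2, exceeded the highest control by little. The difference was 0.34 ± 0.09 on the log2 scale, with adjusted p = 0.177 by edgeR and 0.0312 by DESeq2. Of the exonic bases of Sdc3, 6.93% overlap the antisense gene Gm26716 and 0.801% the antisense gene Gm12970. The other 3 syndecans had estimates between -0.12 and -0.00. Sdc1, the syndecan of epithelia and plasma cells, ran from 32.6 to 56.3 CPM in control, 37.8 to 49.3 in CAL and 41.0 to 59.6 in CAL_Dll4i; the keratinocyte ranges above and B and plasma cell marker sums of 248 to 484, 330.2 to 563 and 246 to 682 CPM (9 of 9 markers measured) stand beside it, and their part was not tested. Sdc2 and Sdc4 ran from 15.4 to 27.2 and from 27.8 to 41.1 CPM over all 12 libraries.

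Versican (Vcan), a large chondroitin sulfate proteoglycan that binds hyaluronan, had the largest estimate among the members above 1 FPKM. It stood at 335, 386, 567 and 394 CPM in control and at 123, 259, 222 and 219 in CAL. No CAL library reached the lowest control. The log2 fold change was -1.03 ± 0.24, 0.490 of the control level, with adjusted p = 0.166 by edgeR and 0.00140 by DESeq2. In CAL_Dll4i Vcan stood at 365, 326, 219 and 283 CPM, with libraries inside the range of each other group. The 8 neutrophil markers, all measured, summed to 227 to 427 CPM in control, 116 to 237 in CAL and 227 to 312 in CAL_Dll4i, and the 10 stromal fibroblast markers, all measured, to 6640 to 8602, 6380 to 8486 and 8267 to 9299. Their part in the Vcan difference was not tested.

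Ext1 and Ext2, whose proteins form the polymerase, were both lower in CAL at an unadjusted p under 0.05. Ext1 stood at 124, 134, 129.5 and 126 CPM in control, 89.2, 106, 113 and 96.8 in CAL and 122, 124, 94.2 and 127 in CAL_Dll4i. All CAL libraries lay below all controls (-0.34 ± 0.09, adjusted p = 0.183 by edgeR and 0.0397 by DESeq2). Ext2 stood at 59.6, 65.5, 70.99 and 67.6 CPM in control, 50.4, 56.3, 60.5 and 61.9 in CAL and 60.1, 60.0, 52.5 and 58.0 in CAL_Dll4i. The control and CAL ranges overlapped (-0.20 ± 0.08, adjusted p = 0.269), and without control replicate 3 or without CAL replicate 1 Ext2 was no longer at an unadjusted p under 0.05. Extl2 and Extl3, which act at the start of the chain, had estimates of -0.28 ± 0.14 and 0.12 ± 0.06, and Extl1, which ran from 0.390 to 2.26 CPM, 0.48 ± 0.45. The highest Extl1 values were 2.26 CPM in CAL_Dll4i replicate 3 and 1.69 and 1.51 in CAL replicates 1 and 2. These are the libraries with high muscle markers, and the next value was 1.36 in CAL_Dll4i replicate 1. The part of muscle RNA in the Extl1 values was not tested.

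Among the N-sulfation genes Ndst2 was higher and Ndst3 lower in CAL at the same threshold. Ndst2, whose product makes mast cell heparin, stood at 86.6, 82.2, 76.6 and 82.3 CPM in control, 94.97, 91.4, 90.5 and 92.2 in CAL and 85.1, 80.1, 84.8 and 76.5 in CAL_Dll4i. The CAL libraries lay above the libraries of both other groups. The difference from control was small, 0.17 ± 0.05 on the log2 scale, with adjusted p = 0.188 by edgeR and 0.0369 by DESeq2. The 9 mast cell markers, all measured, summed to 198 to 269 CPM in control, 191 to 363 in CAL and 163 to 388 in CAL_Dll4i, and their part was not tested. Ndst3, a low gene with 50 to 251 counts per library, stood at 2.64, 3.92, 2.75 and 3.52 CPM in control, 1.29, 1.28, 2.45 and 0.760 in CAL and 2.26, 3.89, 1.61 and 3.503 in CAL_Dll4i. All 4 CAL values lay under the lowest control (-1.15 ± 0.35, adjusted p = 0.205 by edgeR and 0.0412 by DESeq2). Ndst1, the Ndst enzyme found in most tissues, stood at 108, 129.7, 119.9 and 129 CPM in control and 118, 130.2 and 122 in CAL replicates 1 to 3, with CAL replicate 4 the lowest of all 12 libraries in CPM (-0.05 ± 0.08).

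Glce and Hs2st1, which act in sequence on the uronic acid, had small estimates. Glce stood at 44.4, 44.9, 45.9 and 45.3 CPM in control, 38.2, 38.7, 40.0 and 47.0 in CAL and 42.9, 42.6, 36.5 and 39.7 in CAL_Dll4i. Controls kept within a narrow range, and CAL replicate 4 alone of the CAL libraries exceeded it (-0.14 ± 0.07). Hs2st1 ran from 30.8 to 32.7 CPM in control and from 28.7 to 30.5 in CAL, which do not overlap, for a difference of -0.11 ± 0.07 with adjusted p = 0.538. The 3-O-sulfotransferases Hs3st1, Hs3st3a1 and Hs3st3b1 had estimates of -0.20 ± 0.17, -0.23 ± 0.27 and -0.35 ± 0.31. Hs3st1 stood at 3.19, 4.74, 4.74 and 4.52 CPM in control, 3.60, 4.22, 3.28 and 3.83 in CAL and 4.59, 5.56, 3.46 and 5.27 in CAL_Dll4i, with all groups overlapping. Hs3st3a1 and Hs3st3b1 are close relatives on chromosome 11, so reads may be split between them, and 32.9% of Hs3st3a1's exonic bases overlap an opposite-strand gene.

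The small leucine-rich proteoglycans gave 2 of 7 members lower at an unadjusted p under 0.05, beside 7.57% of all genes. Bgn, which binds collagen and TGF-beta, stood at 506, 605, 591 and 592 CPM in control, 375, 474, 548 and 409.8 in CAL and 549, 567, 476 and 605 in CAL_Dll4i. Only CAL replicate 3 reached into the control range (-0.34 ± 0.11, adjusted p = 0.218). Aspn stood at 113, 114, 169.6 and 108 CPM in control and at 80.4, 102, 76.8 and 102 in CAL, without overlap (-0.48 ± 0.18, adjusted p = 0.265), and without control replicate 3 its estimate was -0.31. Dcn stood at 421, 427, 519.6 and 446 CPM in control, 456, 508, 463 and 487 in CAL and 448, 551, 511 and 548 in CAL_Dll4i, and Lum ran from 219.7 to 282 CPM in control and 204 to 234 in CAL. Fmod, Ogn and Prelp had estimates of -0.32 ± 0.22, 0.01 ± 0.25 and 0.30 ± 0.16. Control replicate 3 was the highest control for 6 of the 7, Bgn being the exception. Some of these genes are neighbours in the genome: Dcn and Lum, 47337 bases apart on chromosome 10, had estimates of 0.08 ± 0.08 and -0.09 ± 0.09, Aspn and Ogn, 40449 bases apart on chromosome 13, -0.48 ± 0.18 and 0.01 ± 0.25, and Prelp and Fmod, 107151 bases apart on chromosome 1, 0.30 ± 0.16 and -0.32 ± 0.22.

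Perlecan stood at 555, 645, 695 and 574 CPM in control, 582, 701, 662 and 617 in CAL and 714, 786, 605 and 690.2 in CAL_Dll4i, with overlap between all groups (0.05 ± 0.09 in CAL against control). Agrn was at -0.05 ± 0.14. Gpc1, a membrane-anchored glypican, stood at 63.5, 79.5, 78.0 and 73.5 CPM in control, 51.5, 69.4, 72.5 and 45.0 in CAL and 74.5, 80.0, 66.9 and 74.9 in CAL_Dll4i. CAL replicates 1 and 4 were the low ones, and the CAL range overlapped control (-0.31 ± 0.14, adjusted p = 0.340); 18.9% of its exonic bases overlap Ankmy1 on the opposite strand. Gpc3, Gpc4, Gpc6 and Gpc2 had estimates of 0.25 ± 0.39, 0.13 ± 0.16, -0.20 ± 0.12 and 0.22 ± 0.21. Gpc3, a glypican that restrains Hedgehog signalling, was the most variable abundant glypican, from 7.64 to 29.1 CPM in control alone, and 55.6% of the exonic bases of Gpc2 are shared with Gm43720. Of the enzymes that act outside the cell, Sulf1 ran from 64.6 to 104 CPM in control and 53.3 to 80.4 in CAL (-0.39 ± 0.17, adjusted p = 0.324), and its relative Sulf2 from 72.5 to 99.7 and 83.0 to 97.4 (0.11 ± 0.10). Hpse stood at 180.4, 175, 148 and 162 CPM in control, 161, 147, 179 and 157 in CAL and 151, 163, 148 and 159 in CAL_Dll4i, and all groups overlapped.

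**Figure D2:**
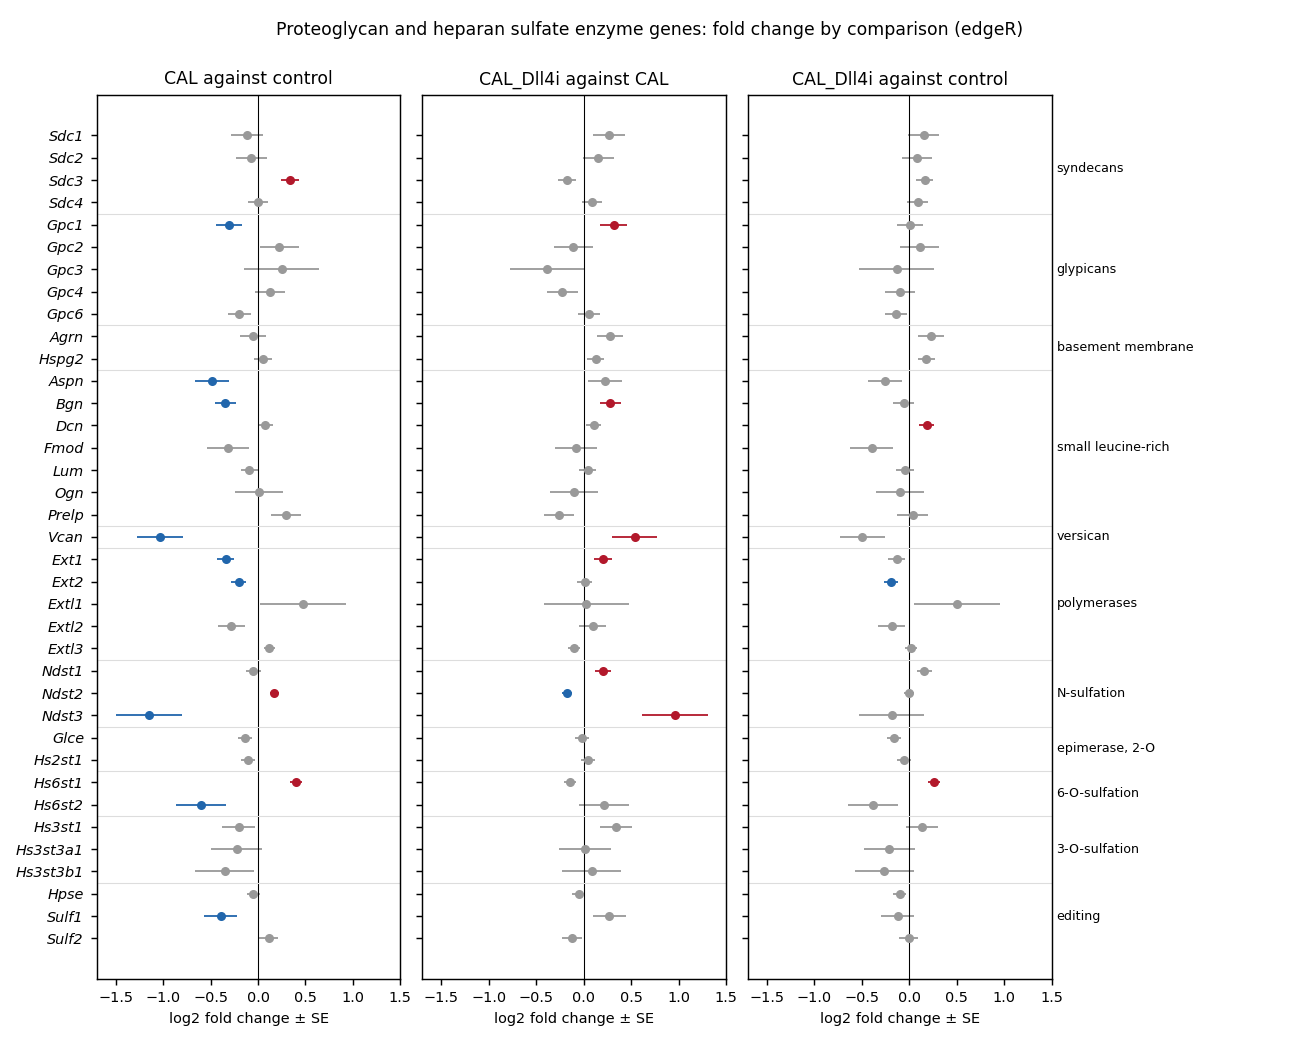
Log2 fold change ± SE (edgeR) of the 37 genes in the 3 comparisons, ordered by role, with red for higher and blue for lower at an unadjusted p under 0.05. In CAL against control 3 genes are red and 9 blue, in CAL_Dll4i against CAL 6 are red and 1 blue, and in CAL_Dll4i against control 2 are red and 1 blue.

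The 9 lower members rested on single libraries for several genes. Without control replicate 3, and likewise without CAL replicate 1, 4 of the 9 remained (Vcan, Ext1, Ndst3 and Bgn). Gpc1 and Sulf1 were also lost without control replicate 2 or 4 or CAL replicate 4, Hs6st2 when control replicate 4 or either of CAL replicates 3 and 4 was left out, and Aspn without CAL replicate 3. Hs6st1, Sdc3 and Ndst2 remained among the higher ones in each of the 8 fits that left out 1 library. Without the 3 libraries with muscle RNA the lower count was 3 (Vcan, Ext1 and Hs6st2) and the higher count 4, with Extl3 added. That fit has 2 CAL libraries, and the estimates of the members lost from the lower count were -0.50 for Aspn, -0.33 for Gpc1, -0.995 for Ndst3, -0.36 for Sulf1, -0.26 for Bgn and -0.11 for Ext2. The shares of all genes past the threshold in these fits are not given here, so the shifts in count may not be particular to the members.

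Other genes of the pathway, which are no members, gave these counts in CAL against control at an unadjusted p under 0.05, with 0 called by edgeR over all genes and 0 by DESeq2. Beside them, 7.01% of all genes were higher and 7.57% lower at that threshold. Of 7 genes for the linker sugar, 0 were higher and 1 lower. Pxylp1, which removes the phosphate from its xylose, averaged 10.1 ± 1.90 CPM (SD, n = 4) over control and 7.54 ± 0.753 over CAL libraries. Of 9 genes for sugar nucleotides and sulfate donors, 0 were higher and 3 lower, with Ugdh, which makes UDP-glucuronic acid, at 202 ± 20.5 and 168 ± 9.64 CPM and Papss2, which makes the sulfate donor, at 46.7 ± 2.23 and 39.4 ± 3.43. Of 15 enzymes for chondroitin and dermatan sulfate, 0 were higher and 4 lower, among them Dsel, at 145 ± 16.3 and 117 ± 11.4 CPM, and Chsy3, at 2.24 ± 0.368 and 1.54 ± 0.224. Of 8 lysosomal genes for heparan sulfate breakdown 0 passed in either direction; Hgsnat stood at 160.4 ± 12.3 and 127 ± 19.5 CPM. Of 16 other proteoglycans and hyaluronan partners, 3 were higher and 1 lower, with Col15a1, a basement membrane collagen that carries chondroitin sulfate, at 284 ± 36.9 and 339.6 ± 13.9 CPM and the link protein gene Hapln3 at 0.798 ± 0.158 and 1.31 ± 0.286.

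The next question is how grafts with ASC differ when Dll4 is also inhibited, which CAL_Dll4i against CAL addresses. Bgn, Vcan, Ndst1, Ndst3, Ext1 and Gpc1 had higher levels with the inhibition and Ndst2 a lower one, at an unadjusted p under 0.05. That is 6 higher and 1 lower of 37, beside 4.47% and 2.95% of all genes. edgeR called 0 members over all genes, against 0.0% of genes, and DESeq2 0, against 0.0054%. Groups did not overlap for 0 members upward and for 1, Ndst2, downward, against 1.58% and 1.76% of all genes. The median was 0.06 over the members and 0.00 over all genes. The CAL libraries also enter CAL against control, so the estimates of a gene in both comparisons share those 4 values and are not independent.

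Ndst2 had the smallest p of the members here, at -0.18 ± 0.05 on the log2 scale, with adjusted p = 0.659 by edgeR and 0.187 by DESeq2. Its CAL_Dll4i libraries lay from 76.5 to 85.1 CPM, under the 90.5 to 94.97 of CAL, and the part of the mast cell and adipocyte marker RNA was not tested. Ndst3 stood at 0.96 ± 0.35 (1.95-fold) and Ndst1 at 0.21 ± 0.08, with Ndst1 at 129.8, 145, 128 and 139 CPM in CAL_Dll4i. Each overlapped CAL through 1 or more libraries, Ndst3 through replicates 1 and 3 of CAL_Dll4i and Ndst1 through replicates 1 and 3. Bgn was at 0.28 ± 0.11, Vcan at 0.54 ± 0.24, Ext1 at 0.21 ± 0.09 and Gpc1 at 0.31 ± 0.14, with adjusted p from 0.659 to 0.669 for these 4 by edgeR. For Ext1 the low CAL_Dll4i library was replicate 3, at 94.2 CPM against 122 to 127 in the others. Hs6st1 stood at -0.14 ± 0.07 and Sdc3 at -0.18 ± 0.09, neither past an unadjusted p under 0.05.

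Of the other members not past that threshold, Hs3st1 stood at 0.34 ± 0.17, Agrn at 0.28 ± 0.14 and Sdc1 at 0.27 ± 0.17. Agrn, which organises basement membranes and the nerve-muscle junction, ran from 36.1 to 45.6 CPM in CAL_Dll4i replicates 1 to 3 and was 64.1 in replicate 4. The count of higher members was 0 in a fit lacking CAL_Dll4i replicate 2 and also 0 in one lacking replicate 4. It was 1 with CAL replicate 4 left out, 2 with CAL replicate 1 left out and 10 with CAL_Dll4i replicate 3 left out. Without the 3 libraries with muscle RNA 5 were higher, of which 3 were among the 6. Here too the shares of all genes in the same fits are not given, so these shifts may not be particular to the members.

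**Figure D3:**
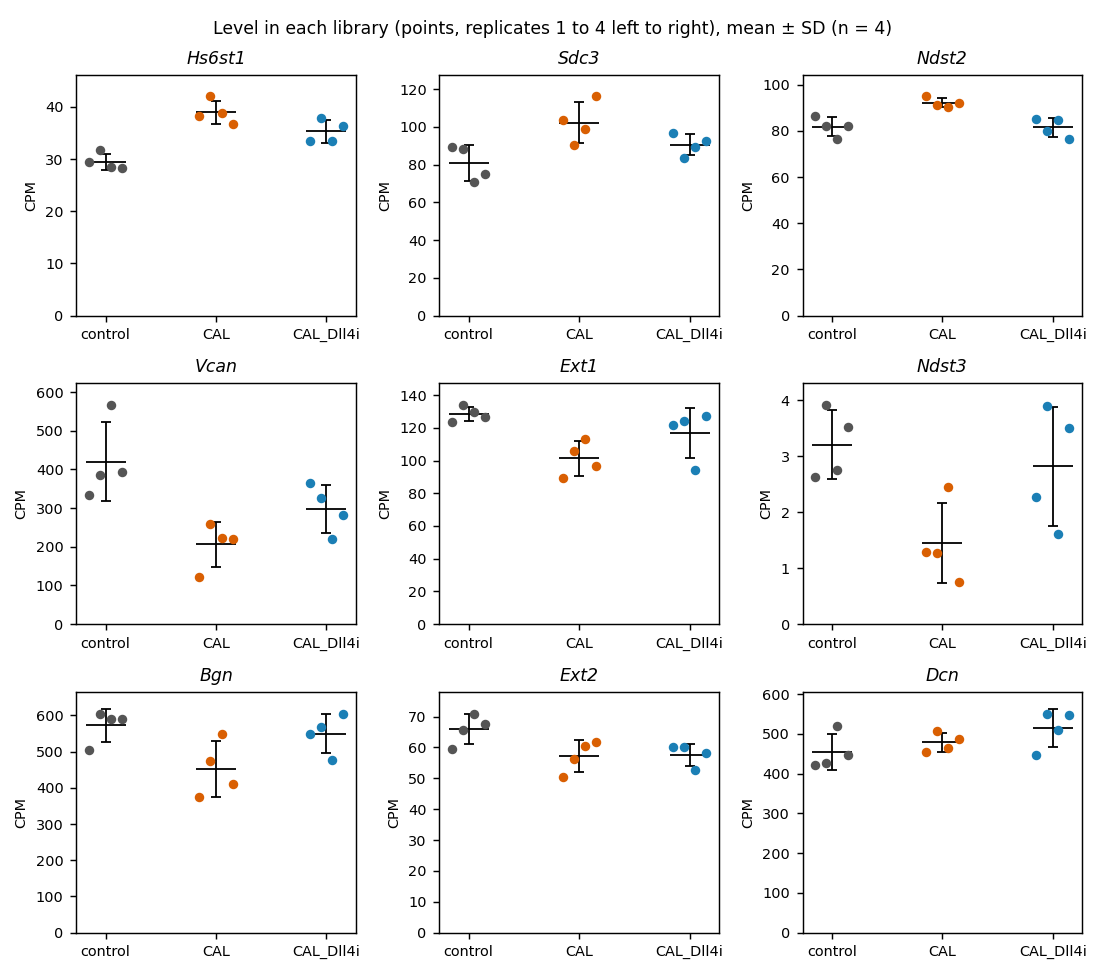
CPM in each library for 9 genes, with replicates 1 to 4 from left to right in each group and bars for mean ± SD over 4 libraries; each axis starts at 0. Hs6st1, Sdc3 and Ndst2 have all CAL points above all control points, and Vcan, Ext1 and Ndst3 have them below.

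In the pathway lists, 6 of 7 linker genes had higher estimates in CAL_Dll4i than in CAL, beside 9510 of all 18551 genes tested. Of the 7, 1 was higher at an unadjusted p under 0.05 (Xylt1, the enzyme that starts the linker, at 57.4 ± 6.67 and 66.4 ± 4.73 CPM). Over all genes 4.47% were higher and 2.95% lower at that threshold. Of 15 chondroitin and dermatan sulfate enzymes 3 were higher and 0 lower, among them Chsy3, at 1.54 ± 0.224 and 2.43 ± 0.467 CPM, and Dsel, at 117 ± 11.4 and 141 ± 11.6 (mean ± SD, n = 4 each). Of the 9 donor genes and the 8 lysosomal genes 0 passed, and of 16 other proteoglycans and partners 2 were higher and 1 lower. None of these genes was called over all genes by edgeR or DESeq2.

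CAL_Dll4i against control compares grafts with both additions to plain grafts. Hs6st1 and Dcn were higher and Ext2 was lower at an unadjusted p under 0.05. This is 2 members higher and 1 lower, beside 3.86% and 3.06% of all genes. edgeR called 0 members over all genes, against 0.0% of genes, and DESeq2 called Hs6st1, against 0.329%. Groups did not overlap for 1 member upward, Hs6st1, and 1 downward, Glce, against 2.41% and 2.35% of all genes. The control libraries are those of CAL against control, and the median was -0.06 over the members and -0.00 over all genes.

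Hs6st1 was 1.20-fold the control level in CAL_Dll4i, or 0.26 ± 0.07 on the log2 scale, with adjusted p = 0.543 by edgeR and 0.0439 by DESeq2. Its unadjusted p stayed under 0.05 in each of the 8 fits that left out 1 library and without the libraries with muscle RNA. Dcn stood at 0.18 ± 0.08 and lost that threshold with control replicate 1, 2 or 4 or CAL_Dll4i replicate 2, 3 or 4 left out. Ext2 stood at -0.19 ± 0.08 and lost it with replicate 3 or 4 of either group left out. Vcan stood at -0.49 ± 0.24, Glce at -0.16 ± 0.07 and Hspg2 at 0.18 ± 0.09, none past an unadjusted p under 0.05. In the pathway lists Col15a1 stood at 360.0 ± 25.3 CPM and Hapln3 at 1.90 ± 0.803, with log2 fold changes of 0.34 ± 0.08 and 1.24 ± 0.30 against control, and DESeq2 called Hapln3 (adjusted p = 0.0417). All 9 donor genes had lower estimates, beside 9346 of all 18551 genes tested, with 0 of the 9 past an unadjusted p under 0.05.

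**Figure D4:**
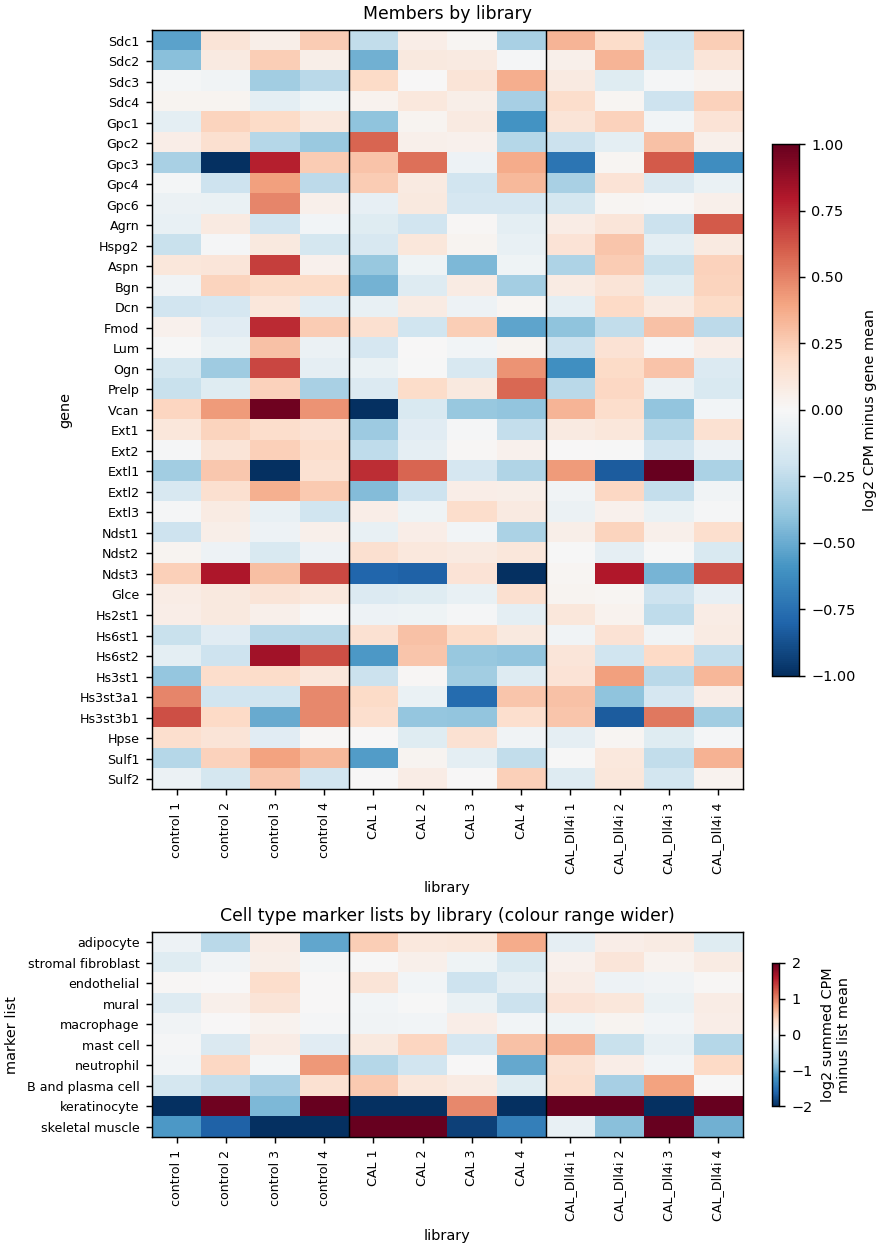
Log2 CPM of each member minus its mean over the 12 libraries (above), and log2 summed CPM of 10 marker lists minus the list mean (below, with a wider colour range in which the keratinocyte and muscle lists saturate at the ends). Control replicate 3 is high in most small leucine-rich proteoglycans and Vcan, CAL replicate 1 is low in Vcan, and CAL_Dll4i replicate 3 carries the highest muscle markers.

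Control replicate 3 was the highest control for 19 of 37 members, CAL_Dll4i replicate 3 was the lowest CAL_Dll4i library for 20 of 37, and CAL replicate 1 the lowest CAL library for 14. Ranks were counted over the members only, so they do not tell a trait of the members from one of the whole library. CAL_Dll4i replicate 3 and CAL replicate 1 are among the 3 libraries with high muscle markers. CAL replicate 2, the remaining one, was the highest CAL library for 14 of 37 members and the lowest for 4. The part of muscle RNA in these ranks was not tested.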

How the data were processed

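RNA of 12 mouse fat graft libraries was sequenced. Total RNA went into libraries built with a SureSelectXT RNA Direct kit, per the labels' protocols. HISAT2, StringTie and the build mm10 are named, without versions, per the submitters' processing notes. The authors' deposited estimated counts are whole numbers, not scaled between libraries, so rounding them changed 0 values. The FPKM values deposited by the authors are scaled for length and library size and served to compare levels between genes. Any difference between genes in how well this kit recovers them is not corrected there. The authors' TPM values (library sums of 995156 to 998891) entered no result. The sources used here do not say whether counting used strand.

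Counts were fitted in R 4.3.3 with edgeR 4.0.16 (TMM, filterByExpr at its defaults, robust quasi-likelihood, 1 coefficient per group over all 12 libraries), which left 18551 genes. Adjusted p-values are Benjamini-Hochberg values over all of them, and a call is an adjusted p under 0.05. SEs were derived from the test statistic. DESeq2 1.42.0, whose adjusted p is missing for genes it filters, was an alternative, as were RLE scaling, no filter, the compared groups alone, the replicate number as a block and each library left out. Leaving out 3 libraries with muscle RNA was chosen after seeing the data. The code was tested on simulated counts.

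Values were given in every library for members called, for the 6 with the smallest p in each comparison and for the member of highest FPKM in each role. For each pathway list the 2 genes with the smallest p were named, except 1 that is not reported here. The members and lists were chosen with earlier results of these data known. Positions and promoters came from RefSeq (GRCm38.p6), where all 37 members were found by gene ID, and overlaps from GENCODE M21. Library sizes were 55883051 to 70804141 counts. Same-numbered libraries did not deviate together (correlations of -0.385 to 0.144), so the numbers were not taken to pair them. Figures were drawn with matplotlib 3.10.9 in Python 3.11.15.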

Additional observations from a re-analysis of the deposited data

Results flagged for a closer look

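In 5 of 111 sets of 4 libraries (37 members in 3 groups), 1 library lay far from the other 3, where chance alone flags about 1 in 20. Bgn was lowest in control replicate 1, at 505.5 CPM against 591 to 605 in the other controls. Hs3st1 was also lowest there, at 3.19 CPM against 4.52 to 4.74. Lum was highest in control replicate 3, at 282 CPM against 219.7 to 229.6. Aspn was highest in the same library, at 169.6 CPM against 108 to 114. Ext1 was lowest in CAL_Dll4i replicate 3, at 94.2 CPM against 122 to 127.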

How the results depend on the processing

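Of the members' estimates at an unadjusted p under 0.05, none changed sign in any setting run. Recomputed, 228 of their values stayed under that threshold and 80 did not. In CAL against control, DESeq2 called 6 members over all genes where edgeR called 0, and the lower count was 3 instead of 9 without the libraries with muscle RNA, a fit with 2 CAL libraries. Of the 6 members lost, the estimates were then -0.50 for Aspn, -0.33 for Gpc1, -0.995 for Ndst3 and -0.36 for Sulf1, against -0.48, -0.31, -1.15 and -0.39 with all libraries, and -0.26 for Bgn and -0.11 for Ext2, against -0.34 and -0.20. With each library left out, the higher count there ran from 3 to 5 and the lower count from 4 to 10. In CAL_Dll4i against CAL the higher count was 3 instead of 6 with the compared groups alone and 0 to 10 with each library left out, and the lower count was 2 instead of 1 with RLE scaling, without a filter, by DESeq2 and with the replicate block (1 to 2 with each library left out); Hs6st1 was added in those 4 settings. In CAL_Dll4i against control DESeq2 called 1 member where edgeR called 0. The lower count there was 2 instead of 1 by DESeq2, with the replicate block and with the 3 libraries rich in muscle RNA left out, and 3 with the compared groups alone. With each library left out it ran from 0 to 3, and the higher count from 1 to 3. The cause of these shifts was not tested, beyond the fewer libraries in a fit. Except for the DESeq2 calls, shares over all genes in these settings are not given here. The shifts may therefore not be particular to the members. With the replicate block the lower count in CAL against control was 8 and the higher count in CAL_Dll4i against CAL was 4. Among the members with few counts were Hs3st3a1 (24 to 60 per library), Extl1 (26 to 143) and Ndst3 (50 to 251).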
